A study of Mus musculus with 5 samples.

Results

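The cells described here are naive-like CD4 T cells found in lymph nodes that drain a tumor. They were chosen by their transcripts. A cell was taken when it held at least 1 unique molecular identifier (UMI, a count of 1 captured transcript) of at least 2 of the 6 genes Ly6c1, Igfbp4, Ccr9, Pdlim4, Actn2 and Atp1b1, and 0 UMIs of Tox2, Wnt10a, Ccr10 and Mki67. The rule found 136 such cells among 5665 lymph node cells, of 13620 cells in the 3 libraries used. They were 68 of 4566 cells of the anti-CTLA4 library and 68 of 1099 cells of the untreated library. They are set beside the primed cells of the same libraries, which are the 3274 anti-CTLA4 and 500 untreated cells with a UMI of Tox2 or Wnt10a, and beside all 7955 cells of the naive library.

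The series holds 5 single-cell libraries of SMARTA cells, CD4 T cells of C57BL/6 genotype with a transgenic receptor for a viral glycoprotein peptide. In the anti-CTLA4 group, cells were sorted as CD4+CD45.1+ from the inguinal lymph node on day 8 after tumor implantation, and CTLA4-blocking antibody had been injected on days 0, 2 and 5. The untreated group was the same organ and day, with no treatment listed. The protocols give diphtheria toxin or PBS on days 0 and 2 without saying which of these 2 groups received PBS, and they name 2 tumors, MC38 and PyMG. An isotype antibody appears in the text on the series but on no label. Hosts of both groups were WT mice per the series text, with tumor cells placed in the mammary fat pad. The naive group was SMARTA cells freshly taken from spleen, with treatment listed as none. The 2 libraries with Treg depletion were not analysed here. Each group was 1 library, so differences between groups could not be set against a spread between replicates, and none was tested. Intervals are exact 95% intervals and cover counting error only.

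Naive CD4 T cells circulate between blood, spleen and lymph nodes. The chemokine receptor Ccr7 guides them into a lymph node, the lipid receptor S1pr1 lets them leave, the factor Klf2 drives S1pr1, and the interleukin 7 receptor Il7r keeps them alive. On meeting antigen, CD4 T cells lose much of this program, divide and gain markers of experience such as Cd44, Pdcd1 and Tnfrsf4.

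The libraries held 27967273, 3825958 and 13767303 UMIs over 11924 listed genes in the anti-CTLA4, untreated and naive group, with medians of 4797, 3133 and 1683 UMIs per cell. The naive-like cells had a median of 1911.5 UMIs in the anti-CTLA4 library and 1848 in the untreated one. The primed cells were deeper, with medians of 5415.5 and 3685.5. Levels are therefore given as CPM, the UMIs of a gene scaled to a common total of UMIs summed over a set of cells. In the naive-like cells 1 UMI was worth 5.38 CPM with anti-CTLA4 and 6.74 CPM without treatment. In bulk sums of this kind fewer cells with a transcript and fewer transcripts per cell cannot be told apart. Of the cell barcodes, 2 occurred in both lymph node libraries, 1 of them on a naive-like cell. A further 10 were shared between anti-CTLA4 and naive and 3 between untreated and naive, none of them naive-like cells.

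The 6 chosen genes were not equally common among the members. With anti-CTLA4, Igfbp4 was found in 46 of the 68 cells, Atp1b1 in 39, Pdlim4 in 39, Ly6c1 in 19, Actn2 in 5 and Ccr9 in 4. Without treatment Igfbp4 and Atp1b1 were each found in 42 of 68, Pdlim4 and Ly6c1 each in 33, Actn2 in 4 and Ccr9 in 1. In the naive spleen library Ly6c1 was found in 3361 of 7955 cells and Ccr9 in 995. Most members lay at the threshold: 57 anti-CTLA4 and 51 untreated cells had UMIs of exactly 2 of the 6 genes. Just outside it, with UMIs of 1 gene, were 146 and 141 cells. Among primed cells, 31 of 3274 with anti-CTLA4 (0.947%) and 11 of 500 without treatment (2.2%) also had UMIs of at least 2 of the 6 genes. All of these values follow from the rule and are a description.

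A pair of small subsets go against the label and both touch the sums. In the anti-CTLA4 library, 3 of the 68 cells held transcripts of MHC class II genes, which mouse T cells do not normally express. They had 149, 61 and 290 UMIs of H2-Aa and 246, 174 and 688 UMIs of its chaperone Cd74, no UMI of either SMARTA receptor variable gene, and 5347, 7010 and 9355 UMIs in all, 11.7% of the UMIs of these 68 cells. The other naive-like cells of both libraries held 0 UMIs of the 3 class II genes H2-Aa, H2-Ab1 and H2-Eb1. A second subset was rich in transcripts for ribosome building. It had more than 40 UMIs per 1000 from a list of ribosome biogenesis genes and Myc targets, a limit set after the values were seen. It held 5 anti-CTLA4 cells (7.35%, 2.43 to 16.3%), with a median of 6245 UMIs and 17.9% of the summed UMIs, and 1 untreated cell (1.47%, 0.0372 to 7.92%) with 2276 UMIs. The median naive-like cell had 12.9 such UMIs per 1000 with anti-CTLA4 and 10.6 without treatment, against 10.2 in naive spleen cells. Among primed cells 20 (0.611%) and 7 (1.4%) passed the same limit, as did 30 naive spleen cells (0.377%). Among lymph node cells neither naive-like nor primed, 48 of 1224 (3.92%) with anti-CTLA4 and 33 of 531 (6.21%) without treatment passed it. Of the 5 anti-CTLA4 cells, 4 had a SMARTA receptor UMI. Without both subsets 60 anti-CTLA4 and 67 untreated naive-like cells remain. Results are given for all 68 cells of each library, and for these remaining cells where stated. Not every value that the remaining cells move is given for them.

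**Figure D1:**
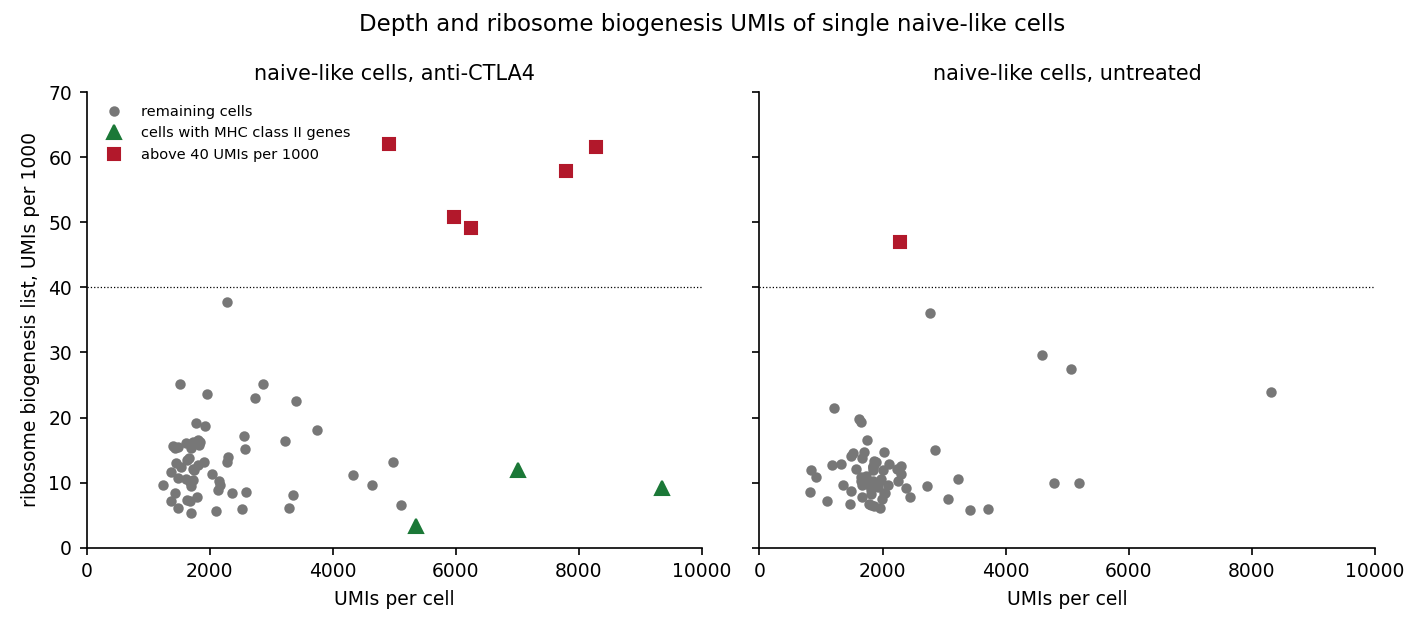
Each point is a naive-like cell of the anti-CTLA4 library (left) or the untreated library (right), by its total UMIs (x axis) and its UMIs of the ribosome biogenesis list per 1000 UMIs (y axis). The 5 anti-CTLA4 squares above the dotted line at 40 all lie among the deeper cells, the 3 class II cells (triangles) lie at the deep end with few ribosome biogenesis UMIs, and the next highest cells stand at 37.7 and 36.1 per 1000.

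Naive-like cells were a smaller share of the anti-CTLA4 library, 1.49% (1.16 to 1.88%), than of the untreated one, 6.19% (4.84 to 7.78%). The libraries differ in depth, and the rule counts UMIs of single genes. After each cell was thinned to 1000 UMIs, the shares were 0.657% (30 of 4566 cells, 0.444 to 0.937%) with anti-CTLA4 and 4.09% (44 of 1077 cells, 2.98 to 5.45%) without treatment. In the untreated library 22 shallower cells were left out of the thinned share, and in the anti-CTLA4 library none. At the same depth the rule found 34.7% (33.7 to 35.8%) of the naive spleen cells, after 130 were left out. It thus leaves out many naive cells and also takes in some cells that go against the name, so the shares are those of cells meeting the rule and bound no population. Division differed between the libraries as well: 35.3% of primed cells with anti-CTLA4 and 8.8% of those without treatment held a UMI of the proliferation gene Mki67. These 2 shares were not thinned, and the anti-CTLA4 primed cells were deeper. Scaled to summed UMIs, Mki67 stood at 371 and 73.2 CPM. The part of division in the difference of shares was not tested, and cell numbers per lymph node were not analysed here.

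The label was checked with markers that the rule did not use. Over cells thinned to 1000 UMIs, 9 naive T cell markers, among them Ccr7, Klf2, Il7r, S1pr1 and Tcf7, summed to a median of 7 UMIs per naive-like cell with anti-CTLA4 and 9 without treatment. Primed cells had medians of 4 and 5, and naive spleen cells 9. The 12 markers of antigen experience had a median of 0 UMIs in naive-like cells of both libraries, 4 in primed cells of both, and 0 in naive spleen cells. None of the 12 was seen in 51.5% (39.0 to 63.8%) of anti-CTLA4 and 56.9% (44.0 to 69.2%) of untreated naive-like cells. That share was 4.70% and 3.85% in primed cells and 68.0% in naive spleen cells, so naive-like cells lay much nearer to naive spleen cells in both libraries, if not fully at their value. The class II cells had medians of 1 naive and 3 experience UMIs, and the anti-CTLA4 ribosome-rich cells 3 and 1, whereas the 60 remaining anti-CTLA4 cells had a median of 8 naive UMIs and 0 experience UMIs. The name naive-like therefore fits the markers of the median cell and not those of the 3 class II cells. Nor does it fit the naive markers of the anti-CTLA4 ribosome-rich cells, whose median of 3 lay below the 4 of primed cells. Their experience markers, at a median of 1, were also below the 4 of primed cells. Cells just outside the rule, with UMIs of 1 of the 6 genes, had medians of 5 and 7 naive UMIs and 1 experience UMI.

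**Figure D2:**
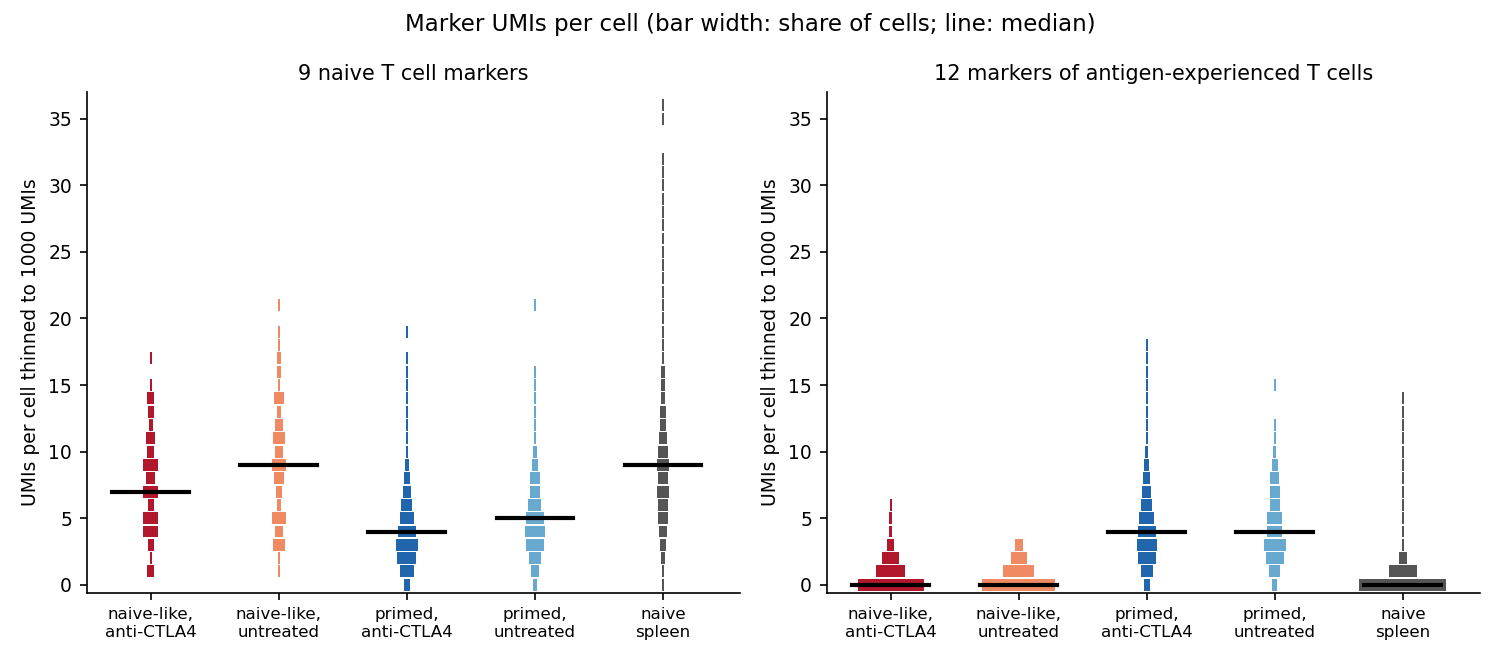
UMIs per cell of 9 naive T cell markers (left) and 12 markers of antigen experience (right), after thinning each cell to 1000 UMIs; bar width is the share of cells at each count and the black line the median. Naive-like cells have medians of 7 and 9 naive marker UMIs and 0 experience marker UMIs, like naive spleen cells at 9 and 0 and unlike primed cells at 4 and 5 and at 4.

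Members also differed among themselves. Among untreated naive-like cells, 22 of the 30 that held Ly6c1, a surface protein of a subset of naive T cells, and could be thinned had no experience marker UMI (73.3%, 54.1 to 87.7%). Of those without Ly6c1, 42.9% (26.3 to 60.7%) of 35 had none. With anti-CTLA4, class II cells left aside, the shares were 50% (26.0 to 73.98%) of 18 cells with Ly6c1 and 55.3% (40.1 to 69.8%) of 47 without it. The intervals overlap in both libraries, and the order of the groups differs between them.

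The transgenic receptor was read where its variable genes were captured. Trbv13-1, the beta chain segment, had 34 UMIs in anti-CTLA4 naive-like cells and 36 in untreated ones, or 183 and 243 CPM, against 179.9 and 242 CPM in primed cells and 169 CPM in naive spleen cells. At least 1 Trbv13-1 UMI was seen in 33.8% of anti-CTLA4 and 39.7% of untreated naive-like cells, against 66.98% and 56.8% of the deeper primed cells and 24.1% of naive spleen cells. Thinned to 1000 UMIs, the shares were 17.6% and 24.6% in naive-like cells, 19.6% and 24.7% in primed cells and 15.2% in naive spleen cells. Per UMI the receptor segment was thus as frequent in naive-like cells as in primed cells of the same library. Trav14d-3-dv8, the alpha chain segment, gave 69.97 and 101 CPM in naive-like cells, 73.7 and 98.6 CPM in primed cells and 93.6 CPM in naive spleen cells. Among receptor variable genes counted, the most frequent other one in anti-CTLA4 naive-like cells was Trdv1 with 12 UMIs, followed by Trdv2-2 with 5. Trdv1 stood there at 64.6 CPM, against 9.38 CPM in primed cells of that library and 22.1 CPM in naive spleen cells. Untreated naive-like cells held 0 UMIs of it.

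Markers of other cells and other T cell states were also summed. Foxp3, the master regulator of regulatory T cells, had 0 UMIs in anti-CTLA4 and 1 UMI in untreated naive-like cells, against 8.21 CPM in naive spleen cells. By a limit of 3 counts, 0 of 68 cells allows up to 4.41% of cells with a Foxp3 UMI, which sets no limit on cells that express the gene. Il2ra had 1 UMI in each library. The whole list of 7 regulatory T cell markers summed to 242 CPM with anti-CTLA4 and 398 CPM without treatment, against 871 and 1177 CPM in primed cells and 208 CPM in naive spleen cells. Most of it was Ikzf2 and Capg, which activated T cells also express. UMIs of at least 2 of these markers were held by 4 of 68 and 6 of 68 naive-like cells. The shares were smaller in naive spleen cells, 171 of 7955, and in those that meet the rule, 54 of 4221, where the list summed to 147.9 CPM. The NK and innate-like T cell list of 7 listed genes summed to 468 CPM with anti-CTLA4, of which 7.64 CPM was left in the remaining cells, and to 20.2 CPM without treatment, against 124 CPM in naive spleen cells. Summed myeloid and dendritic markers, 18 genes with the class II genes among them, came to 12250 CPM with anti-CTLA4, 298 CPM in the remaining cells, and 249 CPM without treatment, against 717 and 444 CPM in primed cells and 404 CPM in naive spleen cells. In the remaining cells 16 of these 18 genes were at 0 in each library. B cell markers (13 genes) summed to 441 and 485 CPM, with 9 and 12 genes at 0, against 738 CPM in naive spleen cells. Of the gamma delta list, 4 of 5 listed genes were at 0 in both libraries. The other gene alone gave 344.5 and 310 CPM, against 317 and 420 CPM for the list in primed cells and 570.5 CPM in naive spleen cells. Ccl5, the chemokine of memory-like cells, had 27 UMIs with anti-CTLA4, all of them in the class II cells, and 0 without treatment. The memory-like list of 11 markers summed to 1593 CPM with anti-CTLA4, 703 CPM in the remaining cells, and 310.1 CPM without treatment, against 652 CPM in naive spleen cells and 153 CPM in those that meet the rule. In the remaining anti-CTLA4 cells it was mostly Itgb1 at 244 CPM, S100a4 at 138 CPM, Id2 at 129.9 CPM and Cxcr3 at 107 CPM. All of this S100a4 came from 1 cell. At least 2 of the list's markers were held by 6 of these 60 cells. The same was true of 355 of 7955 naive spleen cells and 80 of the 4221 that meet the rule. The part of memory-like cells in the results was not tested.

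The first comparison sets naive-like cells against primed cells of the same library. The rule split these sets on their own counts, so the values describe them and support nothing further. Naive-like cells had higher levels of the receptors for recirculation and survival in both libraries, and lower levels of follicular helper genes. Cell division genes were lower with anti-CTLA4. Without treatment the S phase genes were near the background. There the G2 and M phase genes were lower, though not when the rule was applied after thinning. Of 4628 genes past the minimum with anti-CTLA4 (mean of 50 CPM and 30 UMIs over both sets), 295 were higher by 2-fold or more (6.37%) and 307 lower by as much (6.63%). In the remaining cells 429 of 4651 were higher (9.22%) and 360 lower (7.74%). Without treatment 212 of 4699 were higher (4.51%) and 221 lower (4.7%), and in the remaining cells 213 of 4702 were higher (4.53%) and 219 lower (4.66%). In both libraries 4235 genes were past the minimum. Of these, 229 were higher with anti-CTLA4 and 127 without treatment, 69 of them in both (30.1% and 54.3%). In the same order 230 and 210 were lower, 87 of them in both (37.8% and 41.4%).

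Il7r, the survival receptor, stood at 361 and 391 CPM in anti-CTLA4 and untreated naive-like cells, against 71.0 and 51.7 CPM in primed cells. That was 5.08-fold (3.91 to 6.48) and 7.56-fold (5.39 to 10.5) higher. S1pr1, the egress receptor, stood at 441 and 512 CPM in naive-like cells, against 106 and 102 CPM in primed cells, 4.18-fold (3.31 to 5.21) and 5.05-fold (3.83 to 6.59) higher. Both sets of naive-like cells exceeded both sets of primed cells for each of these receptors. Klf2, the factor above S1pr1, gave 839.6 CPM with anti-CTLA4 and 1679 CPM without treatment, against 471 and 372 CPM in primed cells. The anti-CTLA4 ratio of 1.78 (1.51 to 2.09) was 2.465 in the remaining cells, whose Klf2 level was 1161 CPM, and the untreated ratio was 4.51 (3.89 to 5.21). Ccr7 gave 721 and 769 CPM in naive-like cells, against 240.4 and 412 CPM in primed cells.

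Other leading genes were Tsc22d3, Itga4, Satb1 and Smad7, described next, and Rasgrp2, Lmo4, Jun, Arl4c, Txnip and Fos. Tsc22d3, a glucocorticoid-induced leucine zipper protein, gave 323 and 337 CPM in naive-like cells, against 27.8 and 52.2 CPM in primed cells, 11.6-fold (8.75 to 15.1) and 6.46-fold (4.52 to 9.11) higher. Itga4, the integrin alpha 4 chain, gave 167 and 135 CPM against 6.75 and 22.9 CPM. Satb1, a chromatin organizer of T cells, gave 769.6 and 1058 CPM against 209 and 324 CPM. Smad7, the inhibitor of TGF-beta signaling, gave 511 and 681 CPM against 89.6 and 201 CPM. These genes too were higher in naive-like cells of both libraries. Not every naive marker followed: Tcf7, a factor that follicular helper cells also keep, gave 942 and 1214 CPM in naive-like cells, against 1053 and 1489 CPM in primed cells. Nsg2 was 1.56-fold (1.21 to 2.04) and 1.75-fold (1.32 to 2.37) lower in naive-like than in primed cells.

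Among genes lower in naive-like cells were surface molecules of activated helper cells. Izumo1r, the folate receptor 4 of activated and anergic CD4 cells, gave 361 and 418 CPM in naive-like cells, against 1254 and 1677 CPM in primed cells, 3.48-fold (2.74 to 4.49) and 4.01-fold (3.12 to 5.25) lower. Cd200, an inhibitory ligand, gave 199 and 108 CPM against 659 and 693 CPM. Ikzf2, a factor of regulatory and activated T cells, gave 91.5 and 155 CPM against 410.4 and 711 CPM. Pdcd1, the PD-1 receptor, had 6 and 1 UMIs in naive-like cells, or 32.3 and 6.74 CPM, against 152 and 108 CPM. Each of these was lower in naive-like cells of both libraries, though 1 Pdcd1 UMI leaves an interval of 2.84 to 635 on the untreated ratio of 16.0. Lag3 was the exception among the 12 experience markers: it gave 64.6 CPM in anti-CTLA4 naive-like cells, against 53.4 CPM in primed cells, and 13.5 CPM without treatment, against 80.5 CPM.

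**Figure D3:**
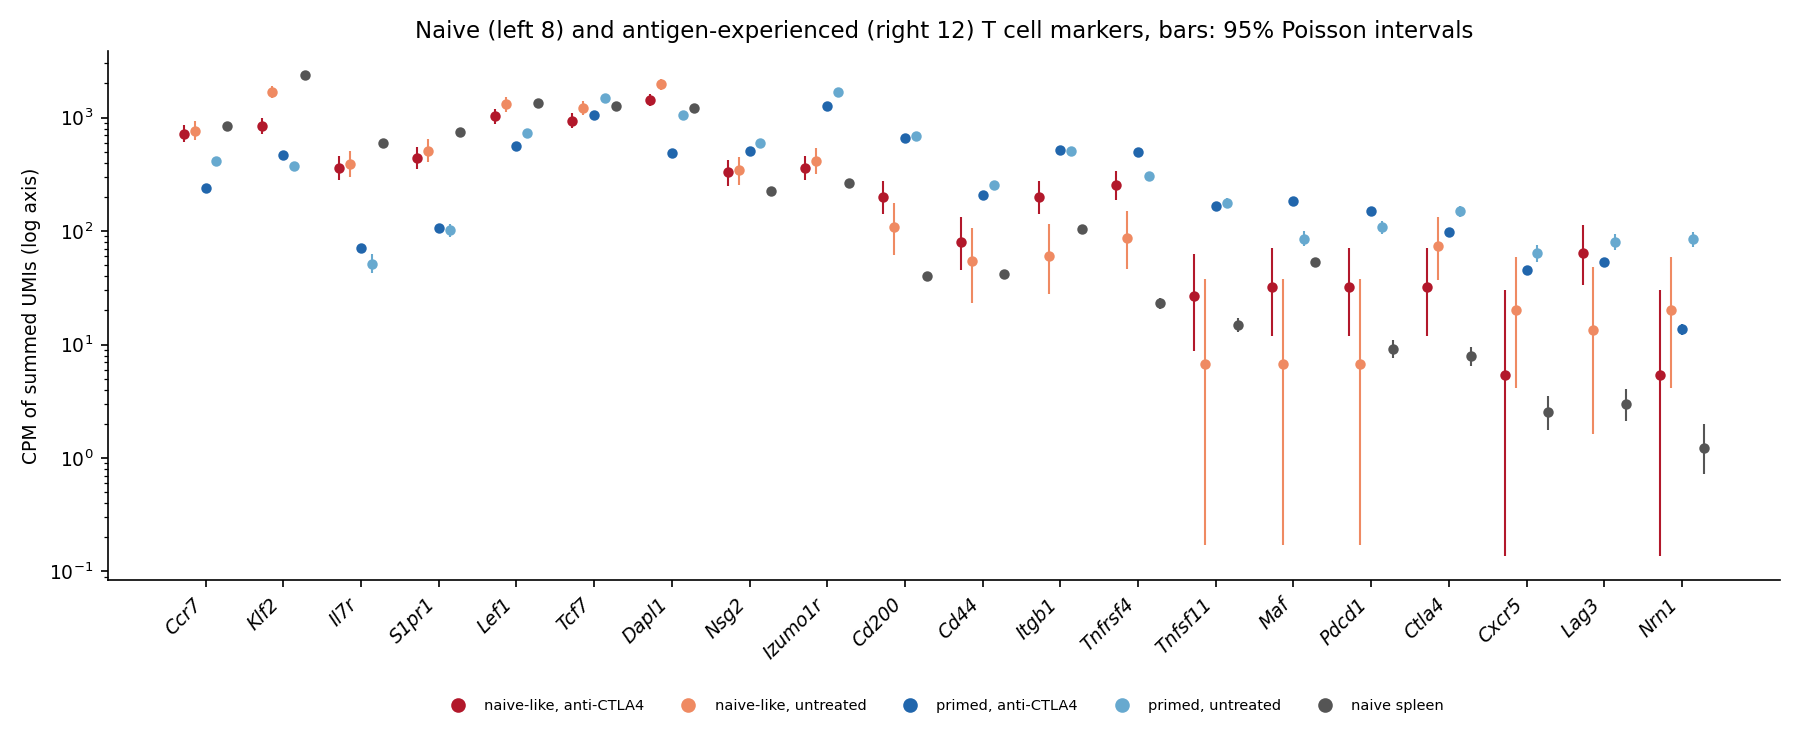
Levels in CPM (log axis) of 8 naive T cell markers (left) and 12 markers of antigen experience (right) in naive-like cells, primed cells and naive spleen cells; bars are 95% Poisson intervals of the summed UMIs. For Il7r and S1pr1 the naive-like points lie between naive spleen and primed cells and nearer to naive spleen, whereas Tcf7 hardly separates the sets.

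The gene lists follow the same order. Members are counted when at least 1.5-fold apart, which 18.4% of all genes with anti-CTLA4 and 15% without treatment were on the higher side and 14.6% and 12.6% on the lower side. The same backgrounds in the remaining cells were 23.6% and 15% on the higher side and 16.1% and 12.9% on the lower side. Of the naive and homing list, 18 of 23 measured members were higher and 1 lower with anti-CTLA4 (median log2 ratio 1.01) and 17 of 25 higher and 1 lower without treatment (median 0.84), beside medians over all genes of 0.05 and 0.04. Of the quiescence list, 12 of 16 were higher and 0 lower with anti-CTLA4 (median 0.92), and 12 of 19 higher and 1 lower without treatment (median 0.75). The follicular helper list had 0 higher and 9 of 13 lower with anti-CTLA4 (median -1.66), and 0 higher and 8 of 11 lower without treatment (median -1.16). Of the genes of G2 and M phase, 29 of 30 were lower with anti-CTLA4 (median -3.62) and 8 of 14 without treatment (median -0.83). Of the S phase genes, 28 of 31 were lower and 0 higher with anti-CTLA4 (median -1.82), but 3 of 21 lower and 2 higher without treatment (median -0.05), near the background shares. The untreated G2 and M phase median was 0.117 when the rule was applied after thinning. The rule bars Mki67 from naive-like cells, so values of division genes partly follow from it. The ribosome biogenesis list was higher for 22 of 39 members with anti-CTLA4 (median 0.63), but for 6 of 38 in the remaining cells (median -0.06), and for 6 of 37 without treatment (median 0.21).

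The second comparison asks how naive-like cells of the lymph node differ from naive SMARTA cells of the spleen. Here the genes of the rule are left out, but organ, library, tumor and tissue digestion differ along with the cells and cannot be told apart. In both libraries naive-like cells had higher immediate early and respiratory chain genes and lower cholesterol synthesis genes. Without treatment they also had higher S phase genes. With anti-CTLA4, 218 of 4763 genes were higher by 2-fold or more (4.58%) and 272 lower (5.71%). In the remaining cells 159 of 4759 were higher (3.34%) and 211 lower (4.43%). Without treatment 163 of 4761 were higher (3.42%) and 215 lower (4.52%), and in the remaining cells 173 of 4770 were higher (3.63%) and 208 lower (4.36%). Past the minimum in both comparisons, which share the naive library, were 4434 genes. Of these, 135 were higher with anti-CTLA4 and 119 without treatment, 54 of them in both (40% and 45.4%). In the same order 267 and 210 were lower, 61 of them in both (22.9% and 29.1%).

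Fosb, a partner of Jun in the AP-1 transcription factor, gave 215 CPM (40 UMIs) in anti-CTLA4 and 189 CPM (28 UMIs) in untreated naive-like cells, against 24.8 CPM in naive spleen cells. That was 8.69-fold (6.10 to 12.1) and 7.62-fold (4.99 to 11.2) higher. Jun itself gave 979.5 and 1874 CPM, against 309 CPM in naive spleen cells, 3.17-fold (2.72 to 3.68) and 6.07-fold (5.35 to 6.85) higher. Fos, another AP-1 subunit, gave 355 and 728 CPM against 116 CPM, 3.07-fold (2.36 to 3.92) and 6.29-fold (5.12 to 7.64) higher. Naive-like cells of both libraries exceeded naive spleen cells for all 3 genes. They also exceeded primed cells of their own library, which held 52.7 and 131 CPM of Fosb, 208 and 521 CPM of Jun and 68.3 and 239.6 CPM of Fos. The untreated ratio of Fosb to primed cells was 1.44, with an interval of 0.941 to 2.13 that includes no difference.

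The promoters of these 3 genes are shown because all 3 encode AP-1 subunits and rank 1 to 3 among genes higher than naive spleen in the remaining cells of both libraries. With all members they rank 1, 4 and 7. Each is the 250 bases before the RefSeq transcription start in mouse build GRCm38.p6, read on the gene's strand. Capitals mark the letters TGACG or TGACNTCA, both forms of the site of CREB and AP-1 family factors.
Fosb: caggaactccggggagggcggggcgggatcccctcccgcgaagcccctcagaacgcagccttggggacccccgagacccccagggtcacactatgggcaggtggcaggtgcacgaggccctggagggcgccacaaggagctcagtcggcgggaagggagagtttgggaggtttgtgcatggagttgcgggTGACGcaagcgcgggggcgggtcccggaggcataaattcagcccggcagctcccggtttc
Jun: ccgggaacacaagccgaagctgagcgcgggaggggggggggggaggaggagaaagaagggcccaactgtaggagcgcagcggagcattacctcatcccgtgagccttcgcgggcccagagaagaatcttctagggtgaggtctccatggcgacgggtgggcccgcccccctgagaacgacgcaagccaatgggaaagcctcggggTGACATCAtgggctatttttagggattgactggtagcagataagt
Fos: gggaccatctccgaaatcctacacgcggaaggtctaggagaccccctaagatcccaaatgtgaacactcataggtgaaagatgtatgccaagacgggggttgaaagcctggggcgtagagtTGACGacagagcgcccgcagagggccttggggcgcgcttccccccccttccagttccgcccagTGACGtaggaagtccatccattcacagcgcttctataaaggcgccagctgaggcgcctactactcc
The Fosb window, chr7:19310046-19310295 on the minus strand, holds 1 TGACG copy 56 bases before the start. The Jun window, chr4:95052223-95052472 on the minus strand, holds 1 TGACNTCA copy 38 bases before the start. The Fos window, chr12:85473640-85473889 on the plus strand, holds 2 TGACG copies, the nearer 62 bases before the start. Both strands were searched (CGTCA and TGANGTCA on the other), and a palindrome that holds both motifs would count for each. Over 32851 RefSeq promoters of the same length, TGACG is found in 17.8% and TGACNTCA in 7.49%. A match describes the letters in the window and is neither a bound site nor a cause of the levels above.

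Other early genes were less even between the libraries. Cd69, which holds T cells in lymph nodes by opposing S1pr1, gave 689 CPM with anti-CTLA4 and 1530 CPM without treatment, against 392 CPM in naive spleen cells. Dusp1, a phosphatase that ends MAP kinase signals, gave 108 and 249 CPM against 49.5 CPM. Rgs1, a brake on chemokine receptor signals, gave 135 CPM in naive-like cells of each library, against 29.2 CPM in naive spleen cells, 4.61-fold (2.95 to 6.90) and 4.62-fold (2.79 to 7.23) higher. In primed cells Rgs1 stood at 101 and 140.5 CPM, so here naive-like cells resembled their own library. Of the immediate early and dissociation stress list, 11 of 23 members were at least 1.5-fold higher and 2 lower with anti-CTLA4 (median log2 ratio 0.57), and 13 of 22 higher and 0 lower without treatment (median 0.78). Over all genes 14.2% were that much higher and 18.4% lower with anti-CTLA4 (median -0.04), and 11.8% and 13.7% without treatment (median 0.01). In the remaining cells the backgrounds were 12% higher and 14.1% lower with anti-CTLA4, and 11.9% and 13.7% without treatment. Lymph nodes were cut and digested before sorting, for the spleen no such step is described, and the part of that handling in these levels was not tested.

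**Figure D4:**
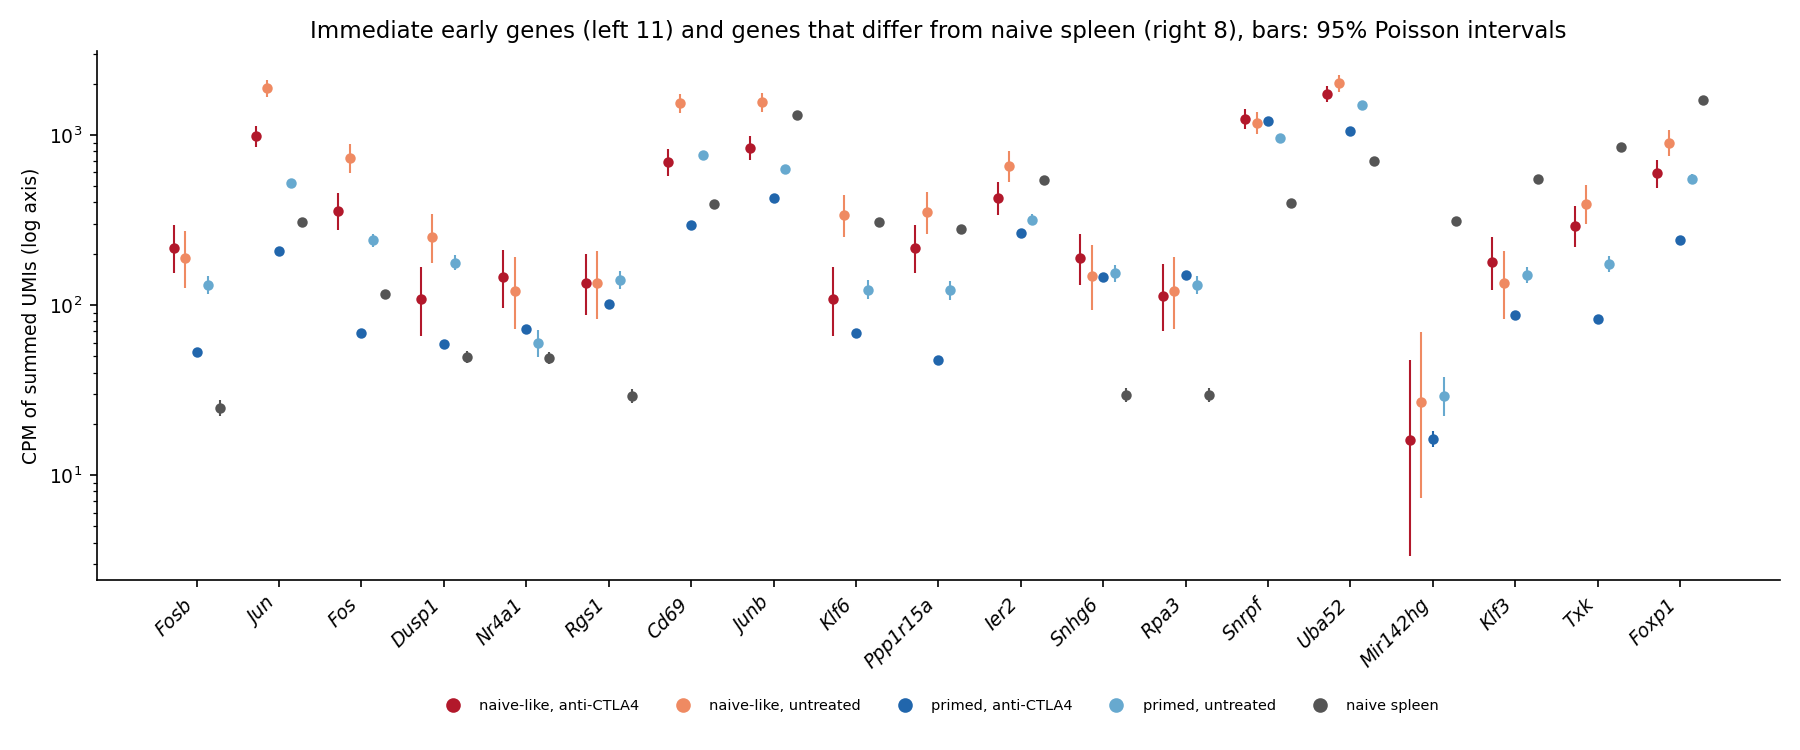
Levels in CPM (log axis) of 11 immediate early genes (left) and 8 further genes that differ from naive spleen (right); bars are 95% Poisson intervals of the summed UMIs. Fosb, Jun and Fos are highest in naive-like cells, whereas Snhg6, Rpa3, Snrpf and Mir142hg stand at like levels in naive-like and primed cells and apart only in naive spleen.

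Several of the largest differences from naive spleen were shared by primed cells of the same libraries. Snhg6, a noncoding host of small nucleolar RNAs, gave 188 and 148 CPM in naive-like cells, 146 and 154 CPM in primed cells and 29.5 CPM in naive spleen cells. Rpa3, the small subunit of a single-strand DNA binding complex, gave 113 and 121 CPM in naive-like cells, 150.5 and 130.3 CPM in primed cells and 29.6 CPM in naive spleen cells. Mir142hg, the host transcript of a microRNA of blood cells, gave 16.1 and 27.0 CPM in naive-like cells, 16.3 and 29.3 CPM in primed cells and 312 CPM in naive spleen cells. Snrpf, a core spliceosome protein, gave 1238 and 1180 CPM, 1199 and 957 CPM, and 397 CPM. The position of these genes is therefore that of the lymph node libraries as a whole, and nothing particular to naive-like cells.

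Some genes lay between primed and naive spleen cells in both libraries. Klf3 did so with anti-CTLA4 alone. Klf3, a factor of resting lymphocytes, gave 178 and 135 CPM in naive-like cells, 87.1 and 150.3 CPM in primed cells and 547 CPM in naive spleen cells. Txk, a kinase of the receptor pathway in T cells, gave 291 and 391 CPM, 82.3 and 174 CPM, and 849 CPM. Foxp1, a factor that keeps naive T cells quiescent, gave 592 and 897 CPM, 239 and 551 CPM, and 1591 CPM, 2.69-fold (2.23 to 3.27) and 1.77-fold (1.5 to 2.12) lower in naive-like than in naive spleen cells. Il2rb, the interleukin 2 receptor beta chain, gave 118 and 94.4 CPM, 226 and 246 CPM, and 20.9 CPM. Tnfrsf4, the OX40 co-stimulator, gave 253 and 87.6 CPM, 492 and 305 CPM, and 23.2 CPM, and its anti-CTLA4 level was 99.3 CPM in the remaining cells, so much of it lay in the 8 cells set apart. Cd200 gave 199 and 108 CPM, 659 and 693 CPM, and 40.5 CPM. For Txk and Foxp1 naive-like cells were lower than naive spleen cells and higher than primed cells, and for Il2rb, Tnfrsf4 and Cd200 the reverse.

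How far the remaining naive-like cells stood from naive spleen cells toward primed cells can be put as a percentage of that distance, marker by marker. Over the experience markers at least 2-fold apart between primed and naive spleen cells the median was 15.4% with anti-CTLA4 (12 markers) and 11.4% without treatment (11 markers). Over the naive markers counted in the same way it was 16.6% (8 markers) and 33.3% (6 markers). The markers spread widely around these medians. With anti-CTLA4, Maf lay beyond naive spleen at -11.1% and Lag3 at the primed level with 100.1%, and without treatment Itgb1 stood at -12.0% and Ctla4 at 47.9%. These positions rest on few transcripts and have no interval. Maf and Lag3 gave 38.2 and 53.5 CPM, where 1 UMI was worth 7.64 CPM. Itgb1 and Ctla4 gave 54.8 and 75.3 CPM, where 1 UMI was worth 6.85 CPM. Among the naive markers with anti-CTLA4, Dapl1 stood at -80.2%, higher than in naive spleen, and Nsg2, which was higher in primed cells, at 67.9%.

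Among recirculation genes Ccr7 was near its spleen level, Il7r and S1pr1 lay below theirs, and Klf2 lay farthest below with anti-CTLA4. Il7r was 1.66-fold (1.30 to 2.14) and 1.53-fold (1.18 to 2.01) lower than the 597 CPM of naive spleen cells, and S1pr1 1.68-fold (1.35 to 2.11) and 1.44-fold (1.15 to 1.83) lower than 739.9 CPM. Ccr7 differed by 1.16-fold (0.976 to 1.38) and 1.09-fold (0.903 to 1.32), intervals that include no difference. Klf2 was 2.80-fold (2.40 to 3.30) lower with anti-CTLA4, 2.03-fold in the remaining cells, and 1.40-fold (1.24 to 1.59) lower without treatment, against 2355 CPM in naive spleen cells. Dapl1, a gene of naive T cells, was higher than in spleen, at 1442 and 1969 CPM against 1217 CPM. Of the naive and homing list, 1 of 25 members was higher and 10 lower with anti-CTLA4 (median log2 ratio -0.45), against 2 of 26 higher and 8 lower in the remaining cells (median -0.15). Without treatment 3 of 26 were higher and 6 lower (median -0.09).

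Metabolic lists moved in 2 directions. Of 50 respiratory chain genes, 20 were at least 1.5-fold higher and 0 lower than in naive spleen with anti-CTLA4 (median log2 ratio 0.48), 15 and 0 in the remaining cells (median 0.40), and 12 and 0 without treatment (median 0.45). Sdhd, a subunit of complex II, gave 145 and 115 CPM in naive-like cells, against 50.05 CPM in naive spleen cells. Atp5k, a subunit of ATP synthase, gave 834 and 775 CPM against 389 CPM. Primed cells held 203 and 167 CPM of Sdhd and 1127 and 930.1 CPM of Atp5k, and against them 0 and 1 of the 50 genes were higher in naive-like cells (medians -0.28 and -0.14). Of the cholesterol synthesis list, 6 of 11 measured members were lower and 0 higher with anti-CTLA4 (median -0.69), and 5 of 7 lower and 0 higher without treatment (median -0.83). Against primed cells 3 of 9 were lower and 0 higher with anti-CTLA4 (median -0.11). Without treatment 0 of 4 were lower and 1 higher than in primed cells (median -0.27). By its median this list was thus not higher in naive-like than in primed cells of either library. Msmo1, an enzyme of the pathway, gave 21.5 and 47.2 CPM in naive-like cells, against 93.7 CPM in naive spleen cells, and rests on few transcripts, 4 and 7 UMIs.

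S phase genes differed between the libraries. Without treatment 8 of 15 measured members were at least 1.5-fold higher than in naive spleen and 1 lower (median log2 ratio 0.64), and the remaining cells gave the same counts (median 0.62). With anti-CTLA4 4 of 15 were higher and 0 lower (median 0.33), against 2 of 14 higher and 0 lower in the remaining cells (median -0.03). Mcm4, a subunit of the replicative helicase, gave 80.7 CPM (15 UMIs) with anti-CTLA4 and 162 CPM (24 UMIs) without treatment, against 64.4 CPM in naive spleen cells. The untreated ratio was 2.51 (1.60 to 3.77). Pcna, the sliding clamp of DNA polymerase, gave 161 CPM (30 UMIs) and 222 CPM (33 UMIs), against 113 CPM in naive spleen cells. Primed cells held 172 and 105 CPM of Mcm4 and 410.0 and 218 CPM of Pcna. The untreated naive-like cells were thus near the primed cells of their library for Pcna and had the higher level of Mcm4. Over the S phase list they did not stand apart from those primed cells, with 3 of 21 members lower and 2 higher (median -0.05).

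The ribosome biogenesis list depends on the ribosome-rich cells, which were chosen by this list, so its drop without them follows from that choice. With anti-CTLA4 24 of 39 members were higher than in naive spleen and 0 lower (median log2 ratio 0.83), but in the remaining 60 cells 6 of 38 were higher and 2 lower (median 0.20). Without treatment 6 of 38 were higher and 2 lower (median 0.12), against 3 of 37 higher and 2 lower in the remaining cells (median 0.10). Myc, the growth regulator above these genes, gave 135 CPM with anti-CTLA4, 61.1 CPM in the remaining cells, and 80.9 CPM without treatment, against 53.8 CPM in naive spleen cells.

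The interferon lists are read against the 1.5-fold backgrounds given above for this comparison. Of the interferon gamma list, 9 of 23 members were at least 1.5-fold higher and 2 lower than in naive spleen with anti-CTLA4 (median log2 ratio 0.30), and 6 of 22 higher and 1 lower without treatment (median 0.35). In the remaining anti-CTLA4 cells 8 of 23 were higher and 0 lower (median 0.49). H2-T23, a nonclassical class I gene, gave 506 and 634 CPM in naive-like cells, 482 and 655 CPM in primed cells and 213 CPM in naive spleen cells. H2-Q6, a near copy of other H2-Q genes whose reads may be split among them, gave 199 and 175 CPM, 156 and 231 CPM, and 59.3 CPM. Of the type I interferon list, 15 of 30 members were lower and 2 higher with anti-CTLA4 (median -0.59), against 10 and 1 of 30 in the remaining cells (median -0.22). Without treatment 5 of 31 were lower and 0 higher (median -0.07), a lower share close to the 13.7% of all genes. Herc6, an interferon-induced ubiquitin ligase, gave 48.4 and 53.9 CPM in naive-like cells against 102 CPM in naive spleen cells. Both H2 genes stood in naive-like cells at the level of primed cells of the same library.

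**Figure D5:**
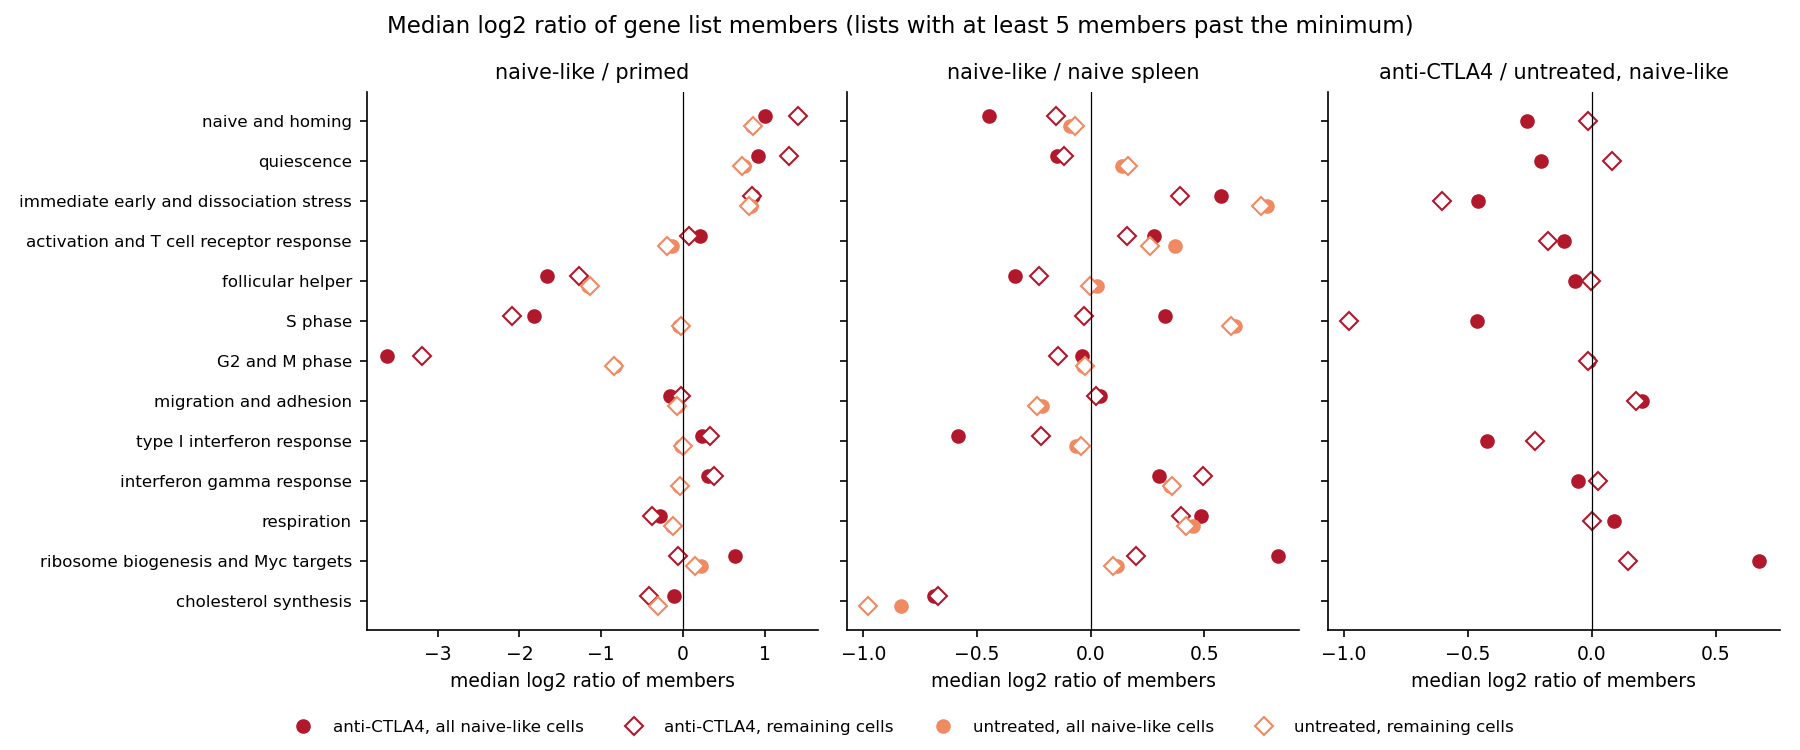
Median log2 ratio of the members of 13 gene lists in the 3 comparisons, with all naive-like cells (filled) and without the class II and ribosome-rich cells (open). The ribosome biogenesis median against naive spleen drops to 0.20 with anti-CTLA4 when these cells are left out, which follows from their choice by that list, whereas the immediate early list stands at 0.39 in the remaining anti-CTLA4 cells.

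The last comparison sets naive-like cells of the anti-CTLA4 library against those of the untreated library. Immediate early and S phase genes were lower with anti-CTLA4, and the leading higher genes belonged to the 8 cells set apart. Of 3040 genes past the minimum, 82 were higher by 2-fold or more (2.7%) and 66 lower (2.17%) with anti-CTLA4. In the remaining cells 33 of 2549 were higher (1.29%) and 43 lower (1.69%). The highest of the 82 were the class II genes, Cd74 at 6060 CPM with anti-CTLA4 against 115 CPM without treatment, S100a4 at 861 against 0 CPM, and Fabp5 at 1017 against 47.2 CPM. Without the 8 cells set apart they stood at 91.7 CPM for Cd74, 138 CPM for S100a4, all of it from 1 cell, and 61.1 CPM for Fabp5.

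Of the immediate early list, 10 of 22 members were at least 1.5-fold lower and 1 higher with anti-CTLA4 (median log2 ratio -0.46), and 11 of 21 lower and 0 higher in the remaining cells (median -0.60). Over all genes 10.2% were that much higher and 10.2% lower, and in the remaining cells 7.77% and 8.08%. Klf6, an early-response factor, gave 108 CPM with anti-CTLA4 and 337 CPM without treatment, 3.13-fold (1.83 to 5.55) lower. Cd69 was 2.22-fold (1.78 to 2.78) lower, Jun 1.91-fold (1.58 to 2.32), Fos 2.05-fold (1.5 to 2.83) and Junb 1.85-fold (1.51 to 2.29), the last at 839.6 against 1557 CPM. Fosb and Rgs1 were exceptions, with ratios of 1.14 (0.686 to 1.92) and an inverse ratio of 1.00 (0.528 to 1.88). Primed cells showed the same order for several of these genes: Cd69 stood at 293 CPM in primed cells with anti-CTLA4 and 765 CPM in those without treatment, and Jun at 208 and 521 CPM. Library, handling and antibody cannot be told apart here.

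The S phase list had 4 of 9 measured members lower and 1 higher (median -0.46), and 6 of 7 lower and 0 higher in the remaining cells (median -0.98). In these cells Pcna stood at 115 CPM (15 UMIs) with anti-CTLA4, 1.97-fold (1.04 to 3.91) lower than without treatment. Other genes that differed were few and from small counts. Stmn1, a microtubule regulator of dividing cells, gave 96.9 CPM (18 UMIs) with anti-CTLA4 and 310.1 CPM (46 UMIs) without treatment, 3.20-fold (1.82 to 5.87) lower. Irf2bp2, a transcriptional corepressor, gave 108 and 303 CPM, 2.82-fold (1.63 to 5.04) lower. Both intervals lie on 1 side of no difference, but Stmn1 turned higher with anti-CTLA4, at a log2 ratio of 0.45 (0.094 to 0.811), when a UMI of 1 of the 6 genes was enough for a cell to be taken. Klf2 was 2.00-fold (1.63 to 2.46) lower with anti-CTLA4 and 1.45-fold (1.18 to 1.78) lower in the remaining cells. In the other direction Itgb1, the integrin beta 1 chain that pairs with Itga4, gave 199 CPM (37 UMIs) with anti-CTLA4 and 60.7 CPM (9 UMIs) without treatment, 3.28-fold (1.56 to 7.73) higher, and 4.46-fold (2.01 to 11.2) higher in the remaining cells. Primed cells held 522 and 512 CPM of Itgb1 and naive spleen cells 104 CPM. Izumo1r, Il7r, S1pr1 and Ccr7 had ratios between the libraries whose intervals include no difference, and the farthest bound among them, for Izumo1r, allows a level up to 1.66-fold lower with anti-CTLA4. The type I interferon list had 8 of 23 members lower and 2 higher (median -0.42), against 5 and 2 of 20 in the remaining cells (median -0.23). Ribosome biogenesis was higher for 21 of 35 members (median 0.68), but for 1 of 30 in the remaining cells (median 0.14).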

How the data were processed

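The files hold UMI counts per gene and cell, deposited by the authors as matrices without normalization. Per the submitters' processing notes, Cell Ranger 6.0.0 and Seurat 4.0.4 were named with build mm10, and the role and order of the tools are not given in the sources used here. Per the labels' protocols, CD4 cells were enriched, sorted and run with 10x 3' v2 chemistry. Cells with at least 200 genes and at most 10% of UMIs from the 5 listed mitochondrial genes were kept, which removed 0 cells. No doublet caller was run and no clusters were made. Cells were chosen, summed and thinned (seed 1) with Python 3.11.15, numpy 2.4.6, scipy 1.17.1 and pandas 2.3.3, and edgeR 4.0.16 gave TMM factors for 1 alternative. CPM scale the UMIs of a gene by the summed UMIs of a set of cells. A ratio has an exact conditional binomial (Clopper-Pearson) interval, and a set with 0 UMIs is set to 3 UMIs. Genes needed a mean of 50 CPM and 30 UMIs over both sets. The procedure was tested on simulated data. The members and the 21 gene lists were chosen with earlier results of these data known.

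Named genes are the 12 highest and 12 lowest of each comparison by the interval bound nearest to 1, leading list members and cell type markers. Any other gene, such as Myc, H2-T23, H2-Q6 and Trdv1, was chosen after its values were seen. Leaving out class II cells or ribosome-rich cells, using naive spleen cells that meet the rule and using primed cells without Mki67 were also chosen after seeing the data. Promoters are from RefSeq, where the 3 AP-1 genes shown matched. Promoters of Rgs1 and S1pr1 are not used here.
Some members of the marker and gene lists are not reported here by name.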

Additional observations from a re-analysis of the deposited data

How the results depend on the processing

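No paired analysis was possible because each group is 1 library, and no replicate could be left out. The 68 members of each library limit every level: 1 UMI is worth 5.38 CPM with anti-CTLA4 and 6.74 CPM without treatment. Of the shares and counts of genes, 137 values under an alternative stayed within 1.5 times or within their interval and 69 moved. TMM scaling, 0.5 UMIs added, a total without mitochondrial and ribosomal genes, the mean of single cells and stricter cell filters moved none of these shares and counts. The cause of each move was not tested, other than that a lower or higher minimum changes how many genes enter.

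The shares of naive-like cells were 4.69% with anti-CTLA4 and 19.0% without treatment when 1 of the 6 genes was enough, 0.241% and 1.55% when 3 were needed, and 0.657% and 4.09% after thinning. Among cells with a SMARTA variable gene the anti-CTLA4 share was 0.863%. Shares after thinning were 1.49% and 6.19% when not thinned, and 0.197% and 1.46% when thinned to 500 UMIs.

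Counts of genes at least 2-fold higher and lower follow, first naive-like against primed cells with anti-CTLA4, then without treatment, then naive-like against naive spleen cells in the same order. The number of genes tested stands in brackets after each pair, since it changes with the setting. With 1 of the 6 genes they were 145 and 178 (4580), then 69 and 104 (4705), against primed cells. With 3 of the 6 they were 1160 and 556 (4710), 724 and 492 (4686), 830 and 548 (4779), and 567 and 494 (4756). With a minimum of 100 CPM they were 125 and 142 (2658), 75 and 91 (2716), 107 and 121 (2762), and 70 and 70 (2773). With a minimum of 25 CPM they were 562 and 527 (6641), 399 and 489 (6616), 386 and 560 (6769), and 318 and 485 (6669). With no minimum they were 3052 and 1013 (11720), 1980 and 945 (10611), 2572 and 1057 (11463), and 2756 and 954 (11445). Here 0 UMIs in naive-like cells are set to 3 UMIs, worth 16.1 CPM with anti-CTLA4 and 20.2 CPM without treatment. A gene that is low in the other set can then be called higher without any naive-like UMI, so these higher counts do not measure genes higher in naive-like cells. With the rule applied after thinning the counts were 674 and 484 (4671), and 375 and 339 (4696), against primed cells. In that setting 354 (4764) and 249 (4784) genes were higher than in naive spleen cells with anti-CTLA4 and without treatment. With only SMARTA gene cells the counts were 363 and 461 (4724), and 333 and 361 (4801), against naive spleen cells. For anti-CTLA4 against untreated naive-like cells, the main counts were 82 and 66 (3040). They were 52 and 21 (4658) with 1 of the 6 genes, 4 and 12 (331) with 3, and 26 and 33 (1306) after thinning. With no minimum they were 754 and 746 (7748), and without class II and ribosome-rich cells 33 and 43 (2549). The low counts with 3 of the 6 genes thus come from far fewer genes tested. Leaving out cells with 2 markers of another cell type gave 47 higher (2478), and using only SMARTA gene cells gave 36 lower (1516).

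Of the values of single genes and lists, 491 moved and 20 changed sign, all given here as log2 ratios. Those of Ccl5, S100a4, Nrn1 and Arfgef1 rest on 0 UMIs in the naive-like cells, with anti-CTLA4 for Arfgef1. A set with 0 UMIs was set to 3 UMIs, so these values are upper limits and show no higher level in naive-like cells. Against naive spleen cells with anti-CTLA4, Cd200 was -0.23 after thinning, Erh -0.38 with 3 of the 6 genes, S100a4 -0.76 after thinning and -0.29 in SMARTA gene cells, and the cholesterol median 0.025 with 3 of the 6 genes. Against naive spleen cells without treatment, Cd200 was -0.50 with 3 of the 6 genes and Ccl5 was 3.78 against naive spleen cells that meet the rule. Against primed cells with anti-CTLA4, S100a4 was -0.017 with 3 of the 6 genes, -0.80 after thinning and -1.82 in SMARTA gene cells, and the ribosome biogenesis median -0.015 after thinning and -0.056 without class II and ribosome-rich cells. Against primed cells without treatment, Nrn1 was 0.025 with 3 of the 6 genes and the G2 and M phase median 0.117 after thinning. Between anti-CTLA4 and untreated naive-like cells, Arfgef1 was 0.10 with 3 of the 6 genes and Stmn1 0.45 with 1. Cd74 was -1.07 with 3 of the 6 genes, -0.54 without cells with 2 markers of another cell type, -0.063 without class II cells and -0.34 without class II and ribosome-rich cells.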
